A study of Homo sapiens with 4 samples.

Results

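A stretch of the long arm of chromosome 3 was examined in 2 lines made from SW480 cells, which come from a human colorectal adenocarcinoma and are long established in culture. It holds 35 member genes of the 19192 genes in the deposited tables, from TXNRD3 to RYK (chromosome 3, 126607052 to 134250744, GRCh38, 7.64 Mb). The members were listed by name as genes of this stretch and were chosen by their mRNA and footprint ratios between the lines. Those ratios are therefore given below as a description, with no test. One line, called knockout-labelled here, bears the label of an IMP1-/- knockout together with LIN28B overexpression. IMP1 is the product of IGF2BP1 and binds mRNAs, and LIN28B restrains let-7 microRNAs. The line it is set against, called OE-labelled, bears the LIN28B overexpression label alone, so both carry that label. Each line gave 1 library of RNA fragments and 1 of ribosome footprints, each made from 3 pooled plates. The labels do not say whether a line is 1 clone, or which promoter drives LIN28B.

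The members form no pathway. They share an address, and their products work in membrane traffic, the endoplasmic reticulum, mitochondria, the cell surface and the nucleus. SW480 cells are aneuploid, and in aneuploid lines the genes of a gained or lost chromosome stretch commonly differ together in RNA amount. DNA copy number was not measured here, so its part in the ratios below was not tested. In bulk libraries more RNA per cell and more cells carrying that RNA cannot be told apart.

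Counts over all genes totalled 6813372 in the knockout-labelled RNA library and 5429224 in the OE-labelled RNA library. The footprint libraries held 3260262 counts in the knockout-labelled line and 2732760 in the OE-labelled line. The targeted gene went against its label: IGF2BP1 had 1974 RNA counts in the knockout-labelled library and 840 in the OE-labelled library. LIN28B had 303 RNA counts in the knockout-labelled library and 1205 in the OE-labelled library. After scaling it was 5.41-fold lower in the knockout-labelled RNA library, although both lines bear its overexpression label. The directions below accordingly compare libraries by label. They follow neither a measured loss of IMP1 nor an equal level of LIN28B. Of 10 colorectal epithelial markers, 7 were measured, among them EPCAM, CDH1 and CDX2, and KRT20, CDX1 and LGALS4 had no RNA count. The summed level of the list was 4955 CPM (counts divided by the TMM-scaled library size, on the usual CPM scale) in the knockout-labelled RNA library and 10441 CPM in the OE-labelled RNA library. The haematopoietic markers summed to 23.1 CPM in the knockout-labelled RNA library and 11.9 CPM in the OE-labelled one, with PTPRC and CD14 at 0. The stromal and muscle markers summed to 37.3 CPM in the knockout-labelled and 24.7 CPM in the OE-labelled RNA library, with DCN at 0. The neural markers summed to 1.69 CPM in the knockout-labelled and 2.88 CPM in the OE-labelled RNA library, with RBFOX3 at 0. The part of these marker differences in the ratios below was not tested.

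Ratios are log2 values, knockout-labelled divided by OE-labelled, after TMM scaling within each assay, so that a positive ratio is higher in the knockout-labelled library. The bracketed range is the exact binomial 95% interval of the 2 counts, which covers counting error only. With 1 library per line and assay, no ratio has a replicate check and none was tested. A gene was called measured in an assay when its 2 libraries averaged at least 50 counts. Of the 35 members, 29 were measured in mRNA and 26 in footprints. ABTB1, RAB6B and RYK passed in mRNA only, and ASTE1, NEK11, TMEM108, BFSP2, TF and SLCO2A1 passed in neither assay.

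Most measured members were higher in the knockout-labelled libraries, by a modest amount. The members' median mRNA ratio was 0.37, against 0.01 over all 9855 measured genes. Above 0 lay 24 of 29 members, against 51.1% of all genes. At least 1.5-fold higher in mRNA were 8 members (ACAD11, MGLL, RAB43, COPG1, PIK3R4, SRPRB, MBD4 and IFT122), and 2 were at least 1.5-fold lower (RAB6B and ABTB1). The same threshold was passed by 10.5% of all measured genes upward and by 10.5% downward. Scaling by total counts in place of TMM changed that split over all genes to 1493 higher and 746 lower, against 1036 higher and 1038 lower under TMM, and moved the median of all genes to 0.13. With total counts 12 members were higher and 2 lower, and the members' median was 0.48. A change of scaling shifts every gene by the same amount, so the members' median stands 0.36 above that of all genes by construction under either. In footprints the members' median was 0.40, against 0.02 over 7323 genes, and 22 of 26 lay above 0, against 51.5% of all genes. There 10 members were at least 1.5-fold higher, where 15.0% of all genes were, and TXNRD3 and GATA2 were at least 1.5-fold lower, where 14.1% were. Of the higher ones, MGLL, IFT122, TPRA1, PODXL2 and CHCHD6 had at most 49 OE-labelled footprint counts. They passed the minimum of 50 only through the knockout-labelled library, where they were high. Likewise TXNRD3 and GATA2 passed only through the OE-labelled library, and IFT122 passed in mRNA only through the knockout-labelled one. At 2-fold, 3 members were higher and 1 lower in mRNA, where 2.99% and 3.49% of all genes were, and 6 were higher and 0 lower in footprints, where 4.66% and 4.44% were. The counting interval lay above 0 for 20 members and below 0 for 2 in mRNA, against 28.5% and 27.3% of all genes. In footprints it lay above 0 for 16 members and below 0 for 2, against 29.9% and 27.4% of all genes. Since these contrasts chose the members, nothing is read from the shares. Both assays passed 1.5-fold upward for 6 of the 26 members measured in both, MGLL, ACAD11, MBD4, IFT122, COPG1 and SRPRB, against 3.77% of 7260 genes. None of the 26 passed it downward in both, against 4.09%. ABTB1 and RAB6B were more than 1.5-fold lower in both assays, but their footprints fell under the count minimum, which left them out of the 26.

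**Figure D1:**
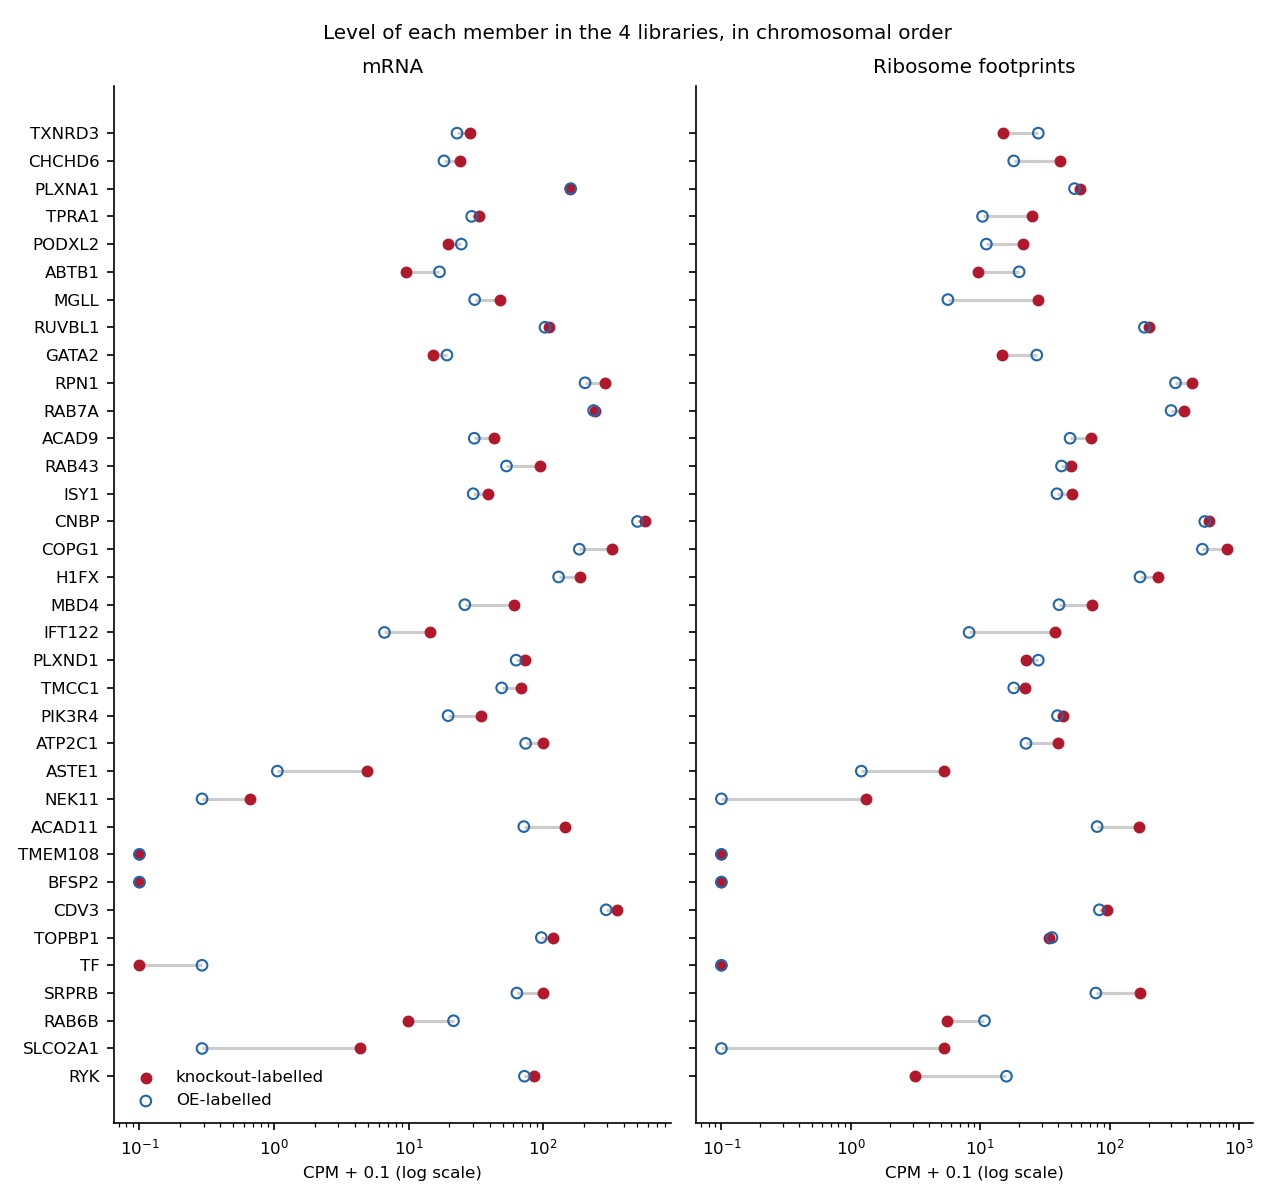
Level of the 35 members in the knockout-labelled (filled) and OE-labelled (open) libraries, in chromosomal order, as CPM with 0.1 added on a log axis, for mRNA (left) and footprints (right). The filled point lies to the right for most members, and to the left in both panels for ABTB1, GATA2 and RAB6B.

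Most of the sequence between the starts of MBD4 and its neighbour IFT122 is shown because these had the highest mRNA ratios among measured members and are transcribed away from each other. MBD4 encodes a DNA glycosylase that removes thymine or uracil mispaired with guanine at CpG sites. IFT122 encodes a subunit of the intraflagellar transport complex that carries cargo back along the cilium. The listed MBD4 transcript starts at position 129440009 on the minus strand and the listed IFT122 transcript at 129440254 on the plus strand, 245 bases apart. The promoter of RAB6B, the measured member with the lowest mRNA ratio, is shown for comparison. Both come from RefSeq (GRCh38.p14), are written 5′ to 3′ on the minus strand, and end at or before the listed transcript's start. Capitals mark matches on either strand to the GC box GGGCGG, the ETS core CCGGAA, the CCAAT box, the E-box CACGTG, the TATA box TATAAA or the TCF and LEF core CTTTGA, and no marked matches overlap here. The window of MBD4 is chr3:129440010-129440198 and that of RAB6B is chr3:133895848-133896097.
MBD4: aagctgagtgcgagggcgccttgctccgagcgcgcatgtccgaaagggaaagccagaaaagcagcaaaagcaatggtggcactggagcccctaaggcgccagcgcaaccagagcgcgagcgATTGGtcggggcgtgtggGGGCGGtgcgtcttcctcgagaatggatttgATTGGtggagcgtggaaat
RAB6B: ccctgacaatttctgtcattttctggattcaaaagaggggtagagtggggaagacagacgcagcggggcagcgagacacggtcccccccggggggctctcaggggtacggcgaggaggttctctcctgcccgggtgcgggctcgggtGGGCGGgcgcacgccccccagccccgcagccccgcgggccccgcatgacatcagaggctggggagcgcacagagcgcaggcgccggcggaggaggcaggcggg

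The 189 bases shown for MBD4 held 2 CCAAT matches, read as ATTGG on this strand, and 1 GGGCGG match. They are the part of its 250-base RefSeq window that lies outside the listed MBD4 transcript. The whole window held 2 CCAAT, 2 GGGCGG and 1 CCGGAA matches, and the RAB6B window, shown whole at 250 bases, held 1 GGGCGG match only. The shares that follow use whole windows, placed at the RefSeq start. For some members that start lies far from the start of the listed, counted transcript. For TMCC1 it is 129688732 against a listed 129880466, and for TMEM108 133124854 against a listed 133038391. TPRA1, PLXNA1 and SRPRB also have separate starts. Matches in such windows are not in the promoter of the counted transcript. CCAAT was found in 11 of the 30 member promoters present in the RefSeq table (36.7%) and in 32.0% of all 35116 promoters, over the 250 bases before each start. The GC box was found in 18 of the 30 and in 42.6% of all promoters. The ETS core was found in 7 of the 30 (23.3%) against 14.5% of all, and the E-box in 3 of the 30 against 6.34% of all. The TATA box was found in 2 of the 30 (6.67%) against 10.7% of all, and the TCF and LEF core in 4 of the 30 (13.3%) against 11.2% of all. The 250-base windows of MBD4 and IFT122 share 225 bases, so their matches are not separate. Median G and C content was 66.4% over member promoters and 58% over all promoters. The 35116 promoters outnumber the 19192 genes counted here, so that background is an unlike set of genes and nothing is read from the gaps. A match describes letters only and is no measured binding site.

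MBD4 had 428 RNA counts in the knockout-labelled library and 136 in the OE-labelled library, and 241 knockout-labelled and 110 OE-labelled footprint counts. Its mRNA ratio was 1.21 (0.93 to 1.5), or 2.31-fold, and its footprint ratio 0.85 (0.52 to 1.19), or 1.80-fold. IFT122 had 102 RNA counts in the knockout-labelled library and 34 in the OE-labelled library, and 123 knockout-labelled and 22 OE-labelled footprint counts. Its mRNA ratio was 1.13 (0.57 to 1.75), or 2.18-fold, while its footprint ratio was 2.18 (1.54 to 2.93), or 4.53-fold. The neighbours thus differed by 0.08 in mRNA ratio. They were picked for having the highest mRNA ratios, so a small difference was built in and nothing is read from it. IFT122 stood above MBD4 in footprint ratio, with intervals that did not overlap. Its footprints passed the count minimum only through the knockout-labelled library, where they were high, so nothing is read from that gap either. Over 552 pairs of measured genes on opposite strands with starts within 1000 bases, the mRNA ratios of the partners had a Pearson r of 0.11 and a median absolute difference of 0.39, as a description of these libraries. The only other such pair among the members, ASTE1 and NEK11 (81 bases apart), was too sparsely counted to be measured.

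Members of membrane traffic and the endoplasmic reticulum were mostly higher in mRNA, with a median of 0.50. Of their 9 ratios 8 lay above 0, against 51.1% over all genes. COPG1 (chromosome 3, 129249606 to 129277773, plus strand), which encodes the gamma subunit of the coatomer of Golgi transport vesicles, had 2288 RNA counts in the knockout-labelled library and 968 in the OE-labelled library. Its footprints numbered 2674 in the knockout-labelled and 1414 in the OE-labelled library, and the knockout-labelled count was the highest of any member there. The COPG1 ratios were 0.80 in mRNA (0.69 to 0.91) and 0.64 in footprints (0.55 to 0.74), with overlapping intervals and an efficiency ratio, footprint over mRNA, of -0.15 (-0.30 to -0.01). SRPRB, which encodes the membrane-anchored subunit of the receptor for the signal recognition particle, had 705 RNA counts in the knockout-labelled library and 332 in the OE-labelled library. It had 562 footprint counts in the knockout-labelled library and 212 in the OE-labelled library. Its ratio was 0.64 in mRNA (0.45 to 0.83) and 1.13 in footprints (0.90 to 1.36), higher in footprints with separate intervals. The span of the listed SRPRB transcript overlaps that of TF by 12608 bases on the same strand, but TF had 1 RNA count in all, in the OE-labelled library. RPN1, a subunit of the oligosaccharyltransferase that glycosylates new proteins in the endoplasmic reticulum, had 2055 RNA counts in the knockout-labelled library and 1068 in the OE-labelled library. Its footprints numbered 1416 in the knockout-labelled and 876 in the OE-labelled library. The RPN1 ratios were close to each other, 0.50 in mRNA (0.39 to 0.61) and 0.42 in footprints (0.29 to 0.54).

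PIK3R4 encodes the regulatory subunit VPS15 of the class III phosphoinositide 3-kinase, which acts in autophagy and endosome sorting. It had 243 RNA counts in the knockout-labelled library and 102 in the OE-labelled library, a ratio of 0.80 (0.47 to 1.16). Its footprints numbered 143 in the knockout-labelled and 107 in the OE-labelled library, with a ratio of 0.14 (-0.23 to 0.52). RAB43, a small GTPase gene of the Golgi, had an mRNA ratio of 0.83 (0.63 to 1.04) from 673 knockout-labelled and 278 OE-labelled counts, and a footprint ratio of 0.23 (-0.12 to 0.59) from 164 knockout-labelled and 115 OE-labelled counts. Both genes were thus higher in mRNA, while their footprint intervals include 0. RAB43 and ISY1 lie within the span of ISY1-RAB43, a read-through gene listed separately, and their reads cannot be assigned with certainty. ATP2C1, a calcium and manganese pump of the Golgi, had 708 knockout-labelled and 386 OE-labelled RNA counts and a ratio of 0.43 (0.25 to 0.61). Its 131 knockout-labelled and 61 OE-labelled footprints gave a ratio of 0.82 (0.38 to 1.29). The listed transcripts of ATP2C1 and ASTE1 overlap by 2795 bases on opposite strands, and whether the counting used strand is not given in the sources used here. TMCC1, an endoplasmic reticulum membrane protein gene, stood at 0.48 in mRNA and 0.27 in footprints. RAB7A, a GTPase gene of late endosomes and lysosomes, had 1709 RNA counts in the knockout-labelled library and 1236 in the OE-labelled library, and its mRNA ratio of 0.02 (-0.08 to 0.13) lay near the median of all genes. Its footprint ratio was 0.32 (0.19 to 0.45), from 1227 knockout-labelled and 810 OE-labelled counts.

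RAB6B (chromosome 3, 133824239 to 133895816, minus strand), a Golgi GTPase gene known mainly from neurons, differed from the others of its role. It had 70 RNA counts in the knockout-labelled library and 112 in the OE-labelled library, 2.17-fold lower (ratio -1.12, -1.57 to -0.68). Its footprints, 18 in the knockout-labelled and 29 in the OE-labelled library, were below the count minimum, with a ratio of -0.95 (-1.90 to -0.07).

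All 5 members of mitochondria and metabolism had mRNA ratios above 0, where 51.1% of all genes did. These ran from 0.32 for TXNRD3 to 1.01 for ACAD11. ACAD11, an acyl-CoA dehydrogenase gene of fatty acid breakdown (chromosome 3, 132558144 to 132660723, minus strand), had 1024 RNA counts in the knockout-labelled library and 374 in the OE-labelled library. Its footprints numbered 554 in the knockout-labelled and 217 in the OE-labelled library. The ACAD11 ratios were 1.01 in mRNA (0.84 to 1.18) and 1.07 in footprints (0.85 to 1.31), so the assays were within counting error of each other. The related ACAD9, which also helps to assemble respiratory complex I, stood at 0.50 in mRNA (0.22 to 0.78) and 0.53 in footprints (0.22 to 0.85). The listed ACAD11 transcript overlaps other listed genes on the opposite strand, and such reads cannot be told apart without strand.

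MGLL (chromosome 3, 127689066 to 127823185, minus strand), the lipase gene that releases fatty acids from monoacylglycerols and degrades the endocannabinoid 2-arachidonoylglycerol, had the highest footprint ratio among measured members. It had 336 RNA counts in the knockout-labelled library and 161 in the OE-labelled library, and 91 knockout-labelled and 15 OE-labelled footprint counts. Its mRNA was 1.53-fold higher (ratio 0.61, 0.34 to 0.90) and its footprints 4.87-fold higher (ratio 2.29, 1.53 to 3.22). CHCHD6, a subunit gene of the complex that shapes mitochondrial cristae, had 171 knockout-labelled and 95 OE-labelled RNA counts, and 135 knockout-labelled and 49 OE-labelled footprint counts. Its ratio was 0.40 in mRNA (0.03 to 0.78) and 1.18 in footprints (0.70 to 1.69). TXNRD3, a thioredoxin reductase gene best known from testis, had ratios of opposite sign in the 2 assays. It had 202 RNA counts in the knockout-labelled library and 119 in the OE-labelled library (ratio 0.32, -0.02 to 0.66), but 49 knockout-labelled and 76 OE-labelled footprint counts (ratio -0.90, -1.46 to -0.37).

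Among the 8 members of the cell surface and secretion, 5 were measured in mRNA, with ratios between -0.33 and 0.23, and none passed 1.5-fold. PLXNA1 and PLXND1, plexin receptors for semaphorin guidance cues, stood in mRNA at -0.03 (-0.16 to 0.10) for PLXNA1 and 0.22 (0.02 to 0.43) for PLXND1. Their footprint ratios were 0.15 for PLXNA1 and -0.31 for PLXND1, both with intervals that include 0. TPRA1, a transmembrane protein gene, had 82 footprint counts in the knockout-labelled library and 28 in the OE-labelled library, a ratio of 1.26 (0.64 to 1.95), while its mRNA ratio was 0.19 (-0.11 to 0.50). PODXL2, a sialomucin gene related to podocalyxin, had 70 knockout-labelled and 30 OE-labelled footprint counts (ratio 0.93, 0.31 to 1.61). Its RNA counts were 139 in the knockout-labelled and 128 in the OE-labelled library (ratio -0.33, -0.68 to 0.03). The 4 low-count or single-assay members of this role are given next. RYK, a WNT co-receptor gene, had 602 RNA counts in the knockout-labelled library and 378 in the OE-labelled library (ratio 0.23, 0.04 to 0.42). Its footprints ran opposite, with 10 counts in the knockout-labelled library and 43 in the OE-labelled library, a ratio of -2.33 (-3.54 to -1.37) below the count minimum. SLCO2A1, the prostaglandin transporter gene, had 30 RNA counts in the knockout-labelled library and 1 in the OE-labelled library (ratio 3.90, 1.87 to 9.81). It had 17 footprint counts in the knockout-labelled library and 0 in the OE-labelled library, at least 4.68-fold higher against a floor of 3 counts per library. TF, the gene for the serum iron carrier transferrin, had no count beyond the 1 given above, and TMEM108 had none in any library. At 3 counts the floor is 0.423 CPM in the knockout-labelled and 0.575 CPM in the OE-labelled RNA library, and 0.913 CPM in the knockout-labelled and 1.11 CPM in the OE-labelled footprint library.

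In the nucleus, 6 of the 7 measured members had mRNA ratios above 0, where 51.1% of all genes did, and the median was 0.29. H1FX, a replication-independent linker histone gene, had 1340 RNA counts in the knockout-labelled library and 679 in the OE-labelled library, and 776 knockout-labelled and 466 OE-labelled footprint counts. Its ratios were 0.54 in mRNA (0.40 to 0.67) and 0.46 in footprints (0.29 to 0.63). CNBP, which encodes a zinc finger protein that binds single-stranded nucleic acids, had the highest RNA counts of any member, 4090 in the knockout-labelled library and 2619 in the OE-labelled library. Its ratios were small, 0.20 in mRNA (0.13 to 0.27) and 0.12 in footprints (0.02 to 0.21). ISY1, a spliceosome component gene, stood at 0.37 in mRNA and 0.38 in footprints, with the uncertainty given above. TOPBP1, a scaffold gene of the DNA replication checkpoint, stood at 0.29 in mRNA (0.12 to 0.45) and -0.08 in footprints (-0.49 to 0.33). RUVBL1, an ATPase gene of several chromatin complexes, stood at 0.09 in mRNA (-0.07 to 0.25) and 0.11 in footprints (-0.06 to 0.28), both intervals including 0. GATA2, a transcription factor gene of blood progenitors, was the only member measured in both assays to lie below 0 in each. It had 107 RNA counts in the knockout-labelled library and 100 in the OE-labelled library (ratio -0.35, -0.75 to 0.06), and 48 knockout-labelled and 74 OE-labelled footprint counts (ratio -0.90, -1.46 to -0.36).

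The remaining members were few. CDV3 had 2511 RNA counts in the knockout-labelled library and 1532 in the OE-labelled library, with ratios of 0.27 in mRNA (0.18 to 0.36) and 0.21 in footprints (-0.04 to 0.46). ABTB1, which encodes an ankyrin and BTB domain protein, had 67 RNA counts in the knockout-labelled library and 88 in the OE-labelled library, 1.78-fold lower (ratio -0.84, -1.32 to -0.36). Its 31 knockout-labelled and 54 OE-labelled footprint counts gave a ratio of -1.07 (-1.76 to -0.41), below the count minimum. ASTE1, a nuclease-like protein gene, had 34 RNA counts in the knockout-labelled library and 5 in the OE-labelled library (ratio 2.20, 0.96 to 4.03), and 17 knockout-labelled and 3 OE-labelled footprint counts (ratio 2.05, 0.44 to 4.64). NEK11, a kinase gene of the DNA damage response, had 4 RNA counts in the knockout-labelled and 1 in the OE-labelled library, and 4 knockout-labelled footprints with none in the OE-labelled library. BFSP2, a lens filament gene, had no count in any library.

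Translational efficiency, the footprint ratio minus the mRNA ratio on the log2 scale, was centred on 0 for the members. Its median over the 26 members measured in both assays was -0.03, against -0.0048 over all 7260 genes. Above 0 lay 13 members and below it 13, and 49.6% of all genes lay above 0. The 5 members at least 1.5-fold higher were MGLL (1.67, 0.85 to 2.49), PODXL2 (1.26, 0.56 to 1.962), TPRA1 (1.07, 0.39 to 1.75), IFT122 (1.05, 0.20 to 1.91) and CHCHD6 (0.78, 0.18 to 1.37), where 13.4% of all genes passed. All of these had at most 49 footprint counts in the OE-labelled library. The 3 at least 1.5-fold lower were TXNRD3 (-1.22, -1.83 to -0.61), PIK3R4 (-0.66, -1.15 to -0.17) and RAB43 (-0.60, -0.99 to -0.20), where 12.9% of all genes passed. At 2-fold 4 members were higher and 1 was lower, where 3.65% and 3.6% of all genes were. The efficiency interval lay above 0 for 7 members and below 0 for 5, against 22.8% and 22.9% of all genes. Of the 9 members with over 200 footprint counts in each line, 7 lay between -0.15 and 0.07, and SRPRB (0.49, 0.19 to 0.78) and RAB7A (0.30, 0.13 to 0.47) lay higher. Across the 26 members Pearson's r between the mRNA and footprint ratios was 0.48 and Spearman's rho 0.46, against an r of 0.51 and a rho of 0.41 over all 7260 genes. These are descriptions across genes that share the same 4 libraries.

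**Figure D2:**
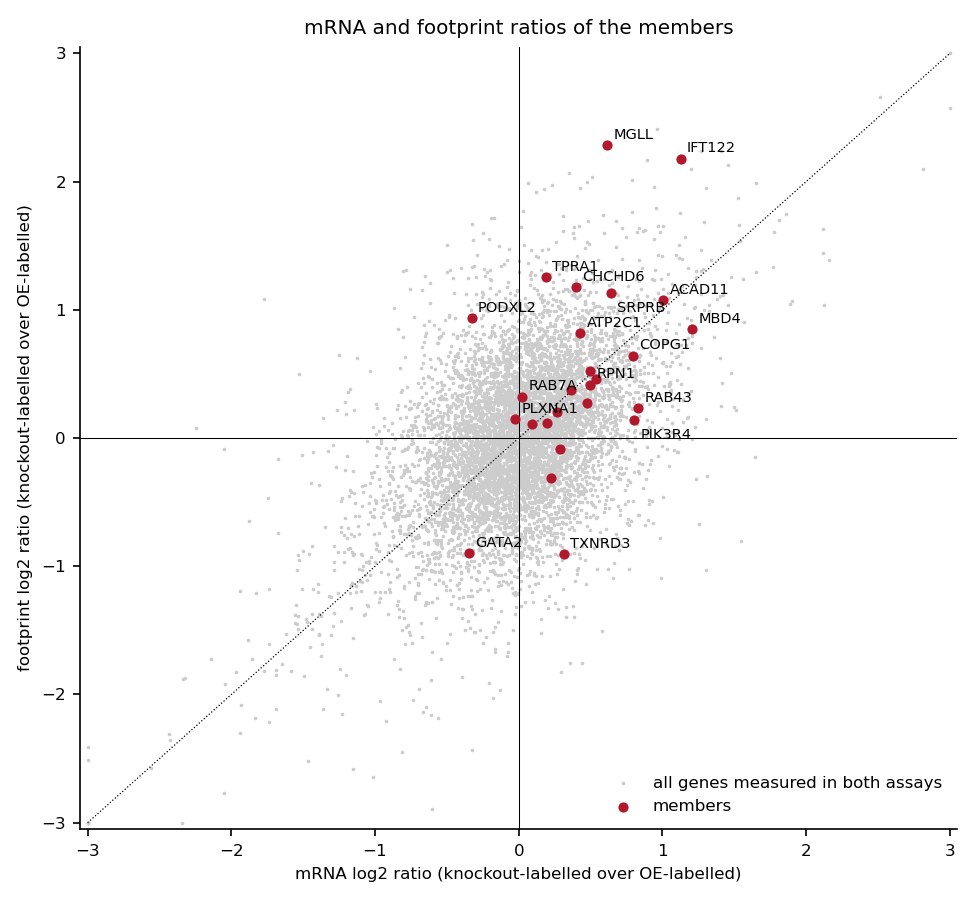
Footprint log2 ratio (vertical) against mRNA log2 ratio (horizontal), knockout-labelled over OE-labelled, for 26 members (red) and all 7260 genes measured in both assays (grey, drawn at 3 where beyond it). Of the members, 20 lie above 0 on both axes, 5 have opposite signs and 1, GATA2, lies below 0 on both.

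Within each line, footprints per RNA varied among the members. This level comes from the same counts as the ratios that chose them. The ratio of scaled footprint CPM to scaled RNA CPM, a level within 1 line, ran between 0.272 and 2.60 in the knockout-labelled line and between 0.179 and 2.81 in the OE-labelled line. Over all 7260 genes it ran between 0 and 27.9 in the knockout-labelled line and between 0 and 44.0 in the OE-labelled line. A wide spread is thus not particular to the members. The members' median was 1.13 in the knockout-labelled and 1.17 in the OE-labelled line, and that of all 7260 genes 1.17 in the knockout-labelled and 1.16 in the OE-labelled line. COPG1 was high in both, at 2.52 in the knockout-labelled and 2.81 in the OE-labelled line. CDV3 was low in both, at 0.272 in the knockout-labelled and 0.284 in the OE-labelled line. TOPBP1 was also low, at 0.286 in the knockout-labelled and 0.369 in the OE-labelled line. These 3 genes kept their side of the median in both lines, but they were named for being high or low. MGLL was below the median in both as well, at 0.585 in the knockout-labelled line and 0.179 in the OE-labelled line. Coding sequence makes up 85.2% of the listed COPG1 transcript, 23.4% of CDV3 and 18.4% of MGLL, and 84.9% of TOPBP1. Over the 26 members that share had a Spearman rho of 0.18 with footprints per RNA in the knockout-labelled line and 0.30 in the OE-labelled line. Over 7252 genes the rho was 0.27 in the knockout-labelled and 0.30 in the OE-labelled line. Which part of each transcript was counted is not given in the sources used here. Per kilobase of coding sequence, CNBP had the highest RNA level, 1086 CPM per kb in the knockout-labelled and 946 CPM per kb in the OE-labelled line. CDV3 had 457 CPM per kb in the knockout-labelled and 380 CPM per kb in the OE-labelled line. RAB7A had 388 CPM per kb in the knockout-labelled and 382 CPM per kb in the OE-labelled line, next to CDV3 in both.

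The stretch was then set beside its surroundings on the chromosome. Between the first and the last member 28 other genes are listed, and 10 of these were measured in mRNA. Their median ratio was 0.46 (-0.071 without the 5 highest of them, a trim that leaves only the lower ones). SEC61A1, which encodes the pore of the endoplasmic reticulum translocon, had 2683 RNA counts in the knockout-labelled library and 1194 in the OE-labelled library. Its ratios of 0.72 in mRNA (0.62 to 0.82) and 0.76 in footprints (0.62 to 0.91) lay among the higher ones of the stretch. ISY1-RAB43 stood at 0.75 in mRNA and 0.56 in footprints. The mRNA ratios of NUDT16 (0.54), DNAJC13 (0.50), HMCES (0.42) and MRPL3 (0.41) were also above 0, with intervals that exclude it. The replication helicase subunit gene MCM2 (-0.18 in mRNA and 0.23 in footprints) and EEFSEC (-0.15 in mRNA and 0.58 in footprints) were below 0 in mRNA. In footprints, 9 of these genes were measured, with a median of 0.31.

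In positional order the higher members were not evenly spread, an observation made after the values were seen. The 18 measured members from RPN1 to SRPRB all had mRNA ratios above 0, against 51.1% of all genes, with a median of 0.50. Of the 9 before RPN1, 5 lay above 0 and 4 below, with a median of 0.09. The 5 measured genes next outside the first member were CHST13 (-0.82), UROC1 (-0.38), ZXDC (0.17), ALDH1L1 (-0.42) and SLC41A3 (0.53), by mRNA ratio and moving away. Those next outside RYK were AMOTL2 (0.25), ANAPC13 (0.27), CEP63 (-0.53), PPP2R3A (0.48) and MSL2 (0.64). The ratios of the outermost members, TXNRD3 (0.32) and RYK (0.23), lay within the range of these 10 neighbours.

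Higher ratios were also found outside the stretch, though not evenly. Genes within 8 Mb on either side had a median of 0.27 in mRNA (66 measured) and 0.33 in footprints (51 measured). Of the 66 mRNA ratios, 51 lay above 0. That share was 51.1% over all genes and 62.4% over all of chromosome 3 outside the stretch. At least 1.5-fold higher in mRNA were 15 of the 66 flanking genes (22.7%), where 10.5% of all genes were, and 3 were at least 1.5-fold lower. The rest of chromosome 3 was then split at its longest stretch with no listed gene (89482134 to 93873033, between EPHA3 and PROS1), where the centromere lies. This split was chosen after the values were seen. On the side that holds the members, the genes outside the stretch had a median of 0.26 in mRNA (240 measured) and 0.27 in footprints (195 measured). On the other side the medians were 0.02 in mRNA (247 measured) and -0.06 in footprints (176 measured). Upward of 1.5-fold in mRNA lay 24.2% of the genes outside the stretch on the members' side and 13.4% of those on the other side, against 10.5% of all genes.

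**Figure D3:**
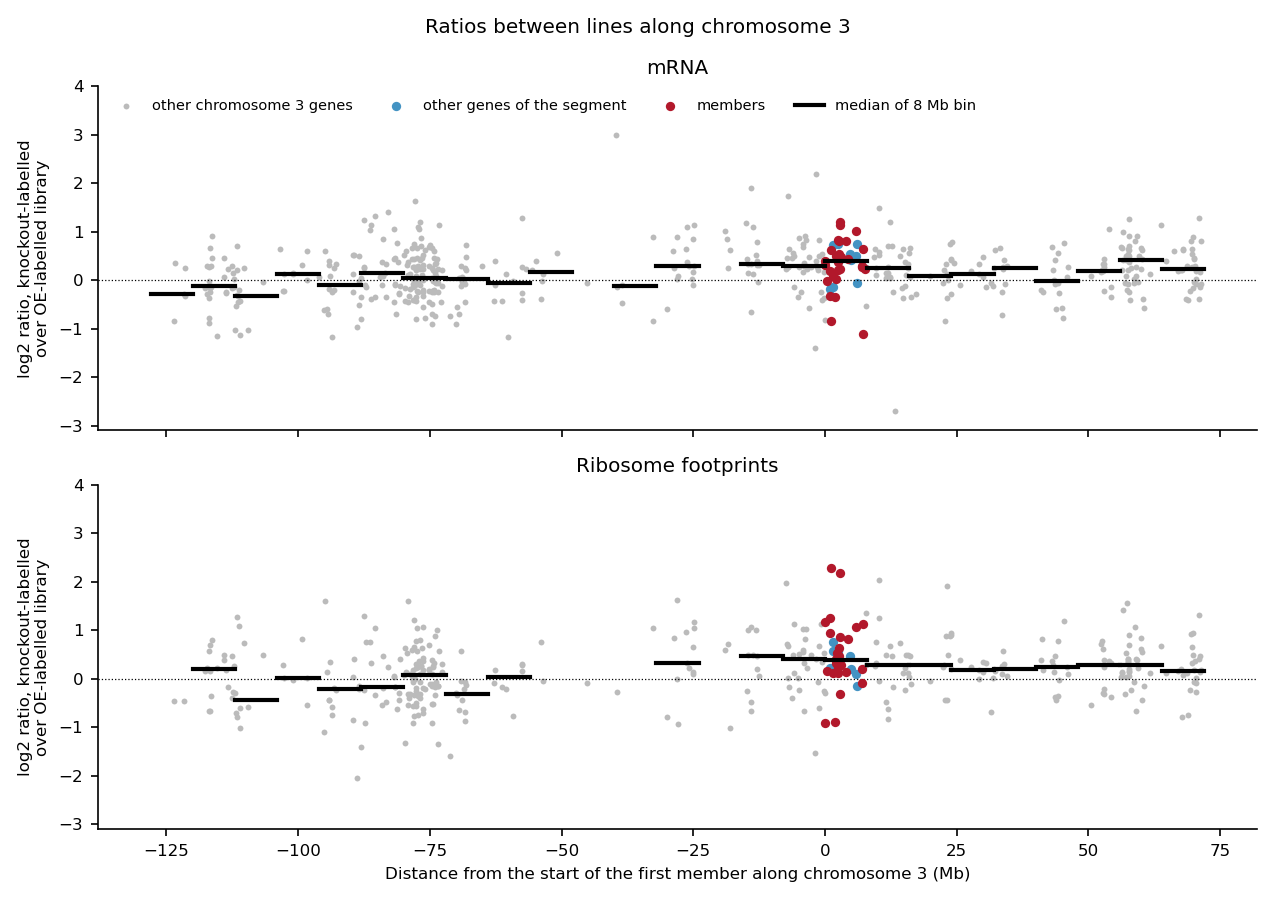
Log2 ratio, knockout-labelled over OE-labelled, of each measured chromosome 3 gene by its distance in Mb from the start of the first member, for mRNA (top) and footprints (bottom), with members in red, other genes of the stretch in blue, and black bars for medians of 8 Mb bins with at least 5 measured genes. The bin that holds the members has an mRNA median of 0.38 and its neighbours 0.28 and 0.25, while the 8 leftmost bins lie at or below 0.15, as do 3 bins on the members' side.

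By chromosome, the mRNA medians ran from -0.53 on chromosome 21 to 0.25 on chromosome 14, and chromosome 3 was second highest at 0.20. In footprints chromosome 21 stood at -0.44, chromosome 14 at 0.18 and chromosome 3 at 0.17. In a bin of chromosome 3 that lies 56 to 64 Mb beyond the first member, the mRNA median was 0.40 over 39 genes. The bins 16 to 24, 24 to 32 and 40 to 48 Mb beyond its start stood lower, at 0.08, 0.12 and -0.02 in mRNA. The value of 0.38 in the members' bin, from 42 genes, was therefore not the highest of the chromosome. The members' own median exceeded that of their flanks by 0.10 in mRNA. Without the 5 highest genes of each list, the mRNA medians were close, at 0.28 for members and 0.26 for flanks. They were 0.40 for members and 0.27 for flanks at a count minimum of 10, and 0.45 for members and 0.36 for flanks at 200. In footprints the median was 0.40 for members and 0.33 for flanks. This order turned at a count minimum of 10 (0.35 for members, 0.40 for flanks) and at a minimum of 200 (0.42 for members, 0.47 for flanks). It also turned without the 5 highest genes of each list (0.27 for members, 0.30 for flanks). Leaving out 5 genes takes a larger part of the members (29 measured in mRNA, 26 in footprints) than of the flanks (66 and 51). The members' median thus falls further by construction, and nothing is read from the trimmed medians.

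**Figure D4:**
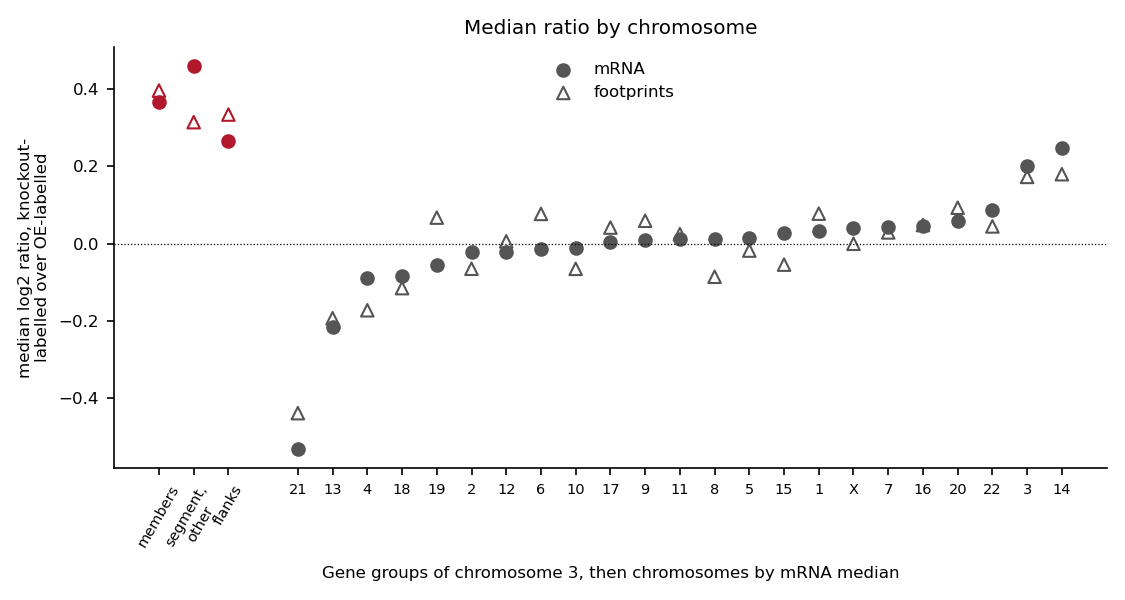
Median log2 ratio, knockout-labelled over OE-labelled, in mRNA (filled circles) and footprints (open triangles), for the members, the other genes of the stretch and its flanks (red, left) and for each chromosome (grey, ordered by mRNA median). Chromosome 21 lies lowest, at -0.53 in mRNA, and chromosomes 3 and 14 highest, at 0.20 and 0.25.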

How the data were processed

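The authors deposited raw counts as whole numbers, each gene with the identifier of 1 transcript, per the file headers. The submitters' processing notes name GRCh38, cutadapt 1.10, HISAT2 2.1.0 and Bowtie 1.1.2 without role or order. The counter, the counted part of each transcript, strand use and the collapse of PCR duplicates were not given in the sources used here; duplicates, if counted, make the intervals too narrow. For 1 library the labels conflict (cell line SW840, source SW480), and SW480 was taken.

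Samples were grouped by line and assay. Counts were scaled with TMM (edgeR 4.0.16, R 4.3.3) over all genes, 0.5 was added for ratios, and exact binomial or, for efficiency, Wald 95% intervals were computed in Python 3.11.15 with scipy 1.17.1. No test was possible with 1 library per group. Positions are of the listed transcripts, looked up in GENCODE 29 (19176 of 19192 found). The ratio and interval steps were tested on simulated counts. Members, lists and the 1.5-fold threshold were chosen with earlier results of these data known. All members, the other measured genes of the stretch and the 5 nearest measured genes outside each end were to be named; some are not reported here. Of the 4 promoters that the rule named, those of ACAD11 and ABTB1 were not analysed here, and 30 of 35 members matched the RefSeq table. Results were recomputed with other scalings (total counts, upper quartile, DESeq2 1.42.0 size factors), count minimums, folds and pseudocounts. The split of chromosome 3, the runs of members, the remark on IFT122 beside the MBD4 promoter and a median without ISY1 and RAB43 were chosen after the data were seen.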

Additional observations from a re-analysis of the deposited data

How the results depend on the processing

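Under the scalings, count minimums, pseudocounts and left-out genes that were run, the other genes of the stretch had a median mRNA ratio of -0.071 without the 5 highest of their 10 genes, PLXNA1 stood at 0.09 in mRNA under total counts, and the members' median efficiency was 0.02 under upper-quartile scaling. The median mRNA ratio of all genes was -0.010 and their median efficiency 0.043 under upper-quartile scaling. No other median, and no other member's mRNA or footprint ratio, changed sign among the values recomputed; single members' efficiency ratios were not recomputed, and those near 0 take their sign from the scaling. Without the 5 highest, the footprint medians were 0.27 for members (26 measured before the trim) and 0.14 for those other genes (9 measured before it). The trim lowers the shorter list more by construction. Scaling by total counts moved the mRNA median of all genes by 0.12 on the log2 scale to 0.13, of members to 0.48, of other genes of the stretch to 0.58 and of flanks to 0.38, and put 5 members at least 1.5-fold lower in translational efficiency; it moved RPN1, RAB7A, CNBP, COPG1 and CDV3 beyond their intervals. At a count minimum of 10, 5 members were lower in footprints, the footprint median of the other genes of the stretch was 0.46, and all genes numbered 1687 higher and 1705 lower in mRNA, 2073 and 2044 in footprints, and 1986 and 1994 in efficiency. At a minimum of 200, 0 members were lower in mRNA, 3 were higher and 0 lower in footprints, 0 were higher and 0 lower in efficiency, the flanks' footprint median was 0.47, and all genes numbered 404 higher and 388 lower in mRNA, 296 and 273 in footprints, and 224 and 166 in efficiency. With no minimum, 5 members were lower in footprints, and all genes numbered 3164 higher and 2998 lower in mRNA, 3179 and 3266 in footprints, and 3021 and 3060 in efficiency. The number of genes measured changes with the minimum, so these counts are not shares and cannot be compared between minimums. At 1.5-fold and a minimum of 50 all genes numbered 1036 higher and 1038 lower in mRNA, 1095 and 1030 in footprints, and 972 and 939 in efficiency. At 2-fold, 3 members were higher and 1 lower in mRNA, 6 and 0 in footprints, and 1 lower in efficiency, and all genes numbered 295 and 344, 341 and 325, and 265 and 261. At 3-fold, 0 members were higher and 0 lower in mRNA, 2 and 0 in footprints, and 1 and 0 in efficiency, and all genes numbered 46 and 81, 59 and 76, and 42 and 35. Of the counts and medians recomputed, 138 stayed within 1.5 times (counts) or 0.1 on the log2 scale (medians) of the value reported, and 58 did not. Without ISY1 and RAB43, the members' medians were 0.32 in mRNA and 0.44 in footprints, an alternative chosen after the data were seen.

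No paired analysis was possible because each line has 1 library per assay and the labels give no replicate numbers, and for the same reason leaving out a replicate was not possible. Intervals cover counting error only, so differences between cultures of 1 line, which these libraries do not measure, add to them. Footprint ratios of MGLL, IFT122, TPRA1 and PODXL2 rest on at most 30 OE-labelled counts.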
